A study of Mus musculus with 16 samples.

Results

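The DNA replication machinery comprises 53 genes here, named from the complexes that license, start and copy replication origins, and it was followed in primary mouse alveolar type II cells at normal and at high oxygen. A member is a gene whose symbol the array gives to a non-control probe, and where several probes carried the symbol the brightest over all arrays was used. These were 53 of the 34832 gene names on the array, all 53 were tested, and 25419 genes were tested in all. The rule uses no difference between the groups.

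RNA was measured on 16 single-dye expression arrays. The cells came from lungs of C57BL/6 mice and are the kind that makes surfactant. The groups were normoxia (21% O2) for 6 h, hyperoxia (85% O2) for 6 h, normoxia for 24 h and hyperoxia for 24 h, with 4 arrays in each. The labels name no genotype, allele, age or further agent for any group, and do not say whether the arrays came from separate mice or cultures, so p-values measure the spread between these samples, which may be technical. The question is how the expression of primary type II cells differed between the oxygen levels at each time.

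In every dividing cell the origin recognition complex (ORC) marks replication origins, and CDC6 and CDT1 load the MCM helicase ring onto them while geminin blocks CDT1 outside that window. The DBF4-dependent kinase, CDC45 and the GINS complex then turn the ring into a moving helicase. Polymerase alpha-primase lays down primers, polymerases epsilon and delta copy the strands held to the PCNA clamp, replication protein A covers single-stranded DNA, and nucleases and a ligase join the Okazaki fragments. Type II cells serve as progenitors of the alveolar epithelium and divide during lung repair.

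Signals well above background made up 53.6% to 69.0% of probes depending on the array, and no spot was saturated. The processed signal had a 75th percentile of 899 to 1021 at 6 h, higher than the 556 to 801 of the 24 h arrays. Levels below are log2 signal relative to that percentile of the same array, so 0 means the percentile itself, and a difference of 1 is a 2-fold change. Errors of differences are SE, with 4 arrays per group throughout. A gene rose or fell where limma's p, adjusted over the 25419 genes, was under 0.05. All 6 h arrays shared 1 slide and all 24 h arrays another, and the oxygen levels occupied separate rows of each slide. Of 12 type II markers 11 were tested, among them Sftpc with a mean level of 3.88 in normoxia at 6 h. Slc34a2 was not well above background on any array. All 12 fibroblast and smooth muscle markers and all 12 macrophage and neutrophil markers were tested as well, as were 7 of 10 endothelial, 8 of 10 lymphocyte and 8 of 10 airway markers. Emcn (endothelial), Cd3g (T cells) and Scgb3a2 (airway) were not well above background on any array. As log2 of the summed signals, the fibroblast and smooth muscle list lay above the type II list in every group. Its mean in normoxia at 6 h was 10.37, against 6.84 for the type II markers. How many cells of other types the samples held was not measured.

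After 24 h of hyperoxia 49 of the 53 replication genes were lower than in normoxia, none was higher (1, Orc4, at an unadjusted p under 0.05) and 4 were not called. Of all genes tested 12.8% were lower and 15.5% higher. The members' median log2 difference was -1.12, against 0.01 over all genes tested. In 29 members the fall was at least 2-fold, which 2.04% of all genes reached. Every hyperoxia array lay below every normoxia array in 48 members, a pattern found in 15.3% of all genes. The deepest falls were in Cdc6, Mcm10, Mcm5, Gmnn and Tk1, and the 4 genes not called were Orc3, Orc4, Orc5 and Gins3. In bulk RNA, fewer dividing cells and less RNA of a gene in each cell cannot be told apart. The oxygen level and the slide row cannot be told apart either.

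At 6 h no member was called, and 1 (Dbf4) had an unadjusted p under 0.05, as had 1877 of the 25419 genes tested. Of all genes tested 0.0905% were called lower and 0.236% higher at that time. Differences of members ran from -0.33 to 0.20 with a median of -0.01, and their 95% confidence intervals reached from -0.98 to 0.91, both ends set by Mcm8. The spread of Mcm8 came from 1 array of another group, normoxia 24 h replicate 1. Without it the interval of Mcm8 at 6 h was -0.21 to 0.14 and those of all members reached from -0.52 (Dbf4) to 0.60 (Cdc7), a fit added after the data were seen, and again no member was called.

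**Figure D1:**
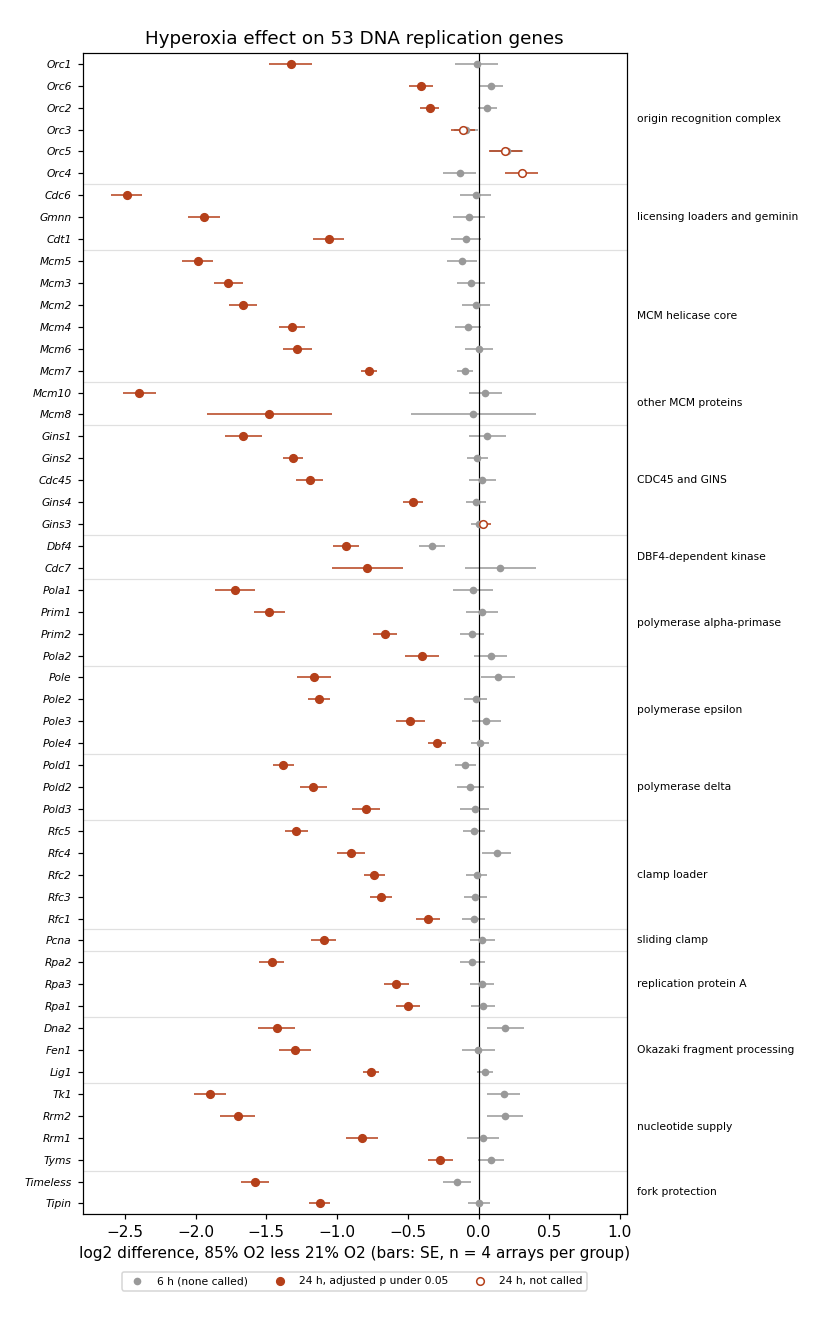
Log2 difference between hyperoxia and normoxia for each of the 53 genes, grouped by complex, at 6 h (grey) and 24 h (red, filled where the adjusted p is under 0.05); bars are SE with 4 arrays per group. The grey points lie between -0.33 and 0.20, and the red points run from -2.49 for Cdc6 to 0.30 for Orc4, with 49 of 53 filled.

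Promoters are printed for Cdc6 and Mcm10, the members with the deepest falls, and for Mcm5 and Mcm3, the helicase ring genes that fell most. Those of Orc3 and Gins3, which moved least among members with an entry, are added so that the letters can be set beside the values. They come from RefSeq (GRCm38.p6), which held 44 of the 53 members, and run from 250 bases before the start site to 50 after it. Each was searched on both strands for an E2F-type motif in its forms TTTCCCGC, TTTCGCGC, TTTGCCGC and TTTGGCGC, for the CCAAT box (CCAAT) and for the cell cycle homology region (CHR, TTTGAA). E2F factors are known activators of genes needed for S phase. Capitals mark the matches, read on either strand.
Cdc6, chr11:98907901-98908200, plus strand: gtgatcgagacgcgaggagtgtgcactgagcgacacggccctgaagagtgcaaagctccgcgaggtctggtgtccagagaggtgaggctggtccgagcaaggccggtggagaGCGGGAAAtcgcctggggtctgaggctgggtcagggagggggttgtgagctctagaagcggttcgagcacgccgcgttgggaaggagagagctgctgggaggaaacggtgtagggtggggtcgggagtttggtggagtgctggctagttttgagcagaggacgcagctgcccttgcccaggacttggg
Mcm10, chr2:5012742-5013041, minus strand: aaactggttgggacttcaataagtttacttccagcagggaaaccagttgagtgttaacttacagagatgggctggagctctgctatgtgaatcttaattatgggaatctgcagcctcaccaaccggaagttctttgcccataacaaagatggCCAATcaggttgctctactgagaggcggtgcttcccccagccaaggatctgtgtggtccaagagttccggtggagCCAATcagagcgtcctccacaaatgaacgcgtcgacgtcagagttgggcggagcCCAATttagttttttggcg
Mcm5, chr8:75109259-75109558, plus strand: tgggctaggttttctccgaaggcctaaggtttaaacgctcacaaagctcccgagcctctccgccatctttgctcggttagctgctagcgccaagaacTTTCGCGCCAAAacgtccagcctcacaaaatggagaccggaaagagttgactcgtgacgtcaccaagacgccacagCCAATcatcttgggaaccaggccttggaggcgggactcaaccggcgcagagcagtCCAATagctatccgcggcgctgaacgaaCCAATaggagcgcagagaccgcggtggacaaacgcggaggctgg
Mcm3, chr1:20820263-20820562, minus strand: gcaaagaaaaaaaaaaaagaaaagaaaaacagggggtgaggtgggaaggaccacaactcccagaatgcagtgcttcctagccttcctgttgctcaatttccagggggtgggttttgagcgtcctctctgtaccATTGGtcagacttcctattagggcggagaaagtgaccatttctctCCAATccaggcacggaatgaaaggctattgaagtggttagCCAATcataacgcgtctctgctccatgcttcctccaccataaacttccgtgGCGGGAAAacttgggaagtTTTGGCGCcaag
Orc3, chr4:34614893-34615192, minus strand: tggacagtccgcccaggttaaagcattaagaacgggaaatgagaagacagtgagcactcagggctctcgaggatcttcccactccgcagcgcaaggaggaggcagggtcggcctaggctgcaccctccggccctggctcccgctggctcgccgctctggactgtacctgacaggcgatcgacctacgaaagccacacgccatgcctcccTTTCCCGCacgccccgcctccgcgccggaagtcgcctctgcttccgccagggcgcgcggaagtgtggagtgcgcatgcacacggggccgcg
Gins3, chr8:95633309-95633608, plus strand: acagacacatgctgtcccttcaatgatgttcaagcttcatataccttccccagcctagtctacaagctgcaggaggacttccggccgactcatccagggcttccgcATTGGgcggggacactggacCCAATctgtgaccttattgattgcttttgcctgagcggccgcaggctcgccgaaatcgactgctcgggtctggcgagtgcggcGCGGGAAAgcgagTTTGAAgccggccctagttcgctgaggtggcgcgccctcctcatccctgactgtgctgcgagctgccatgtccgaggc
The Cdc6 window held 1 E2F-type match, whose first base lies at -138 from the start site, and no CCAAT. That of Mcm10 held 3 CCAAT boxes, at -98, -23 and 32, and none of the E2F-type forms. In Mcm5 the E2F-type matches at -153 and -149 overlap on opposite strands, and 3 CCAAT boxes follow. Mcm3 carried matches of both kinds as well, the E2F-type ones at 20 and 39. Genes that did not fall carried the letters too: Orc3 had an E2F-type match at -41, and Gins3 had 1 at -41 beside a CHR at -28. Tk1, also among the deepest falls but not printed, held none of these motifs in its window.

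An E2F-type match was present in 17 of the 44 members with a window, or 38.6%, against 2.61% of the 27025 genes in the table. The members' windows were richer in G and C, with a median of 61.8% against 52.7% over all windows, which the motif's letters favour. CCAAT was present in 54.5% of members and 41.1% of all genes, and the CHR in 15.9% and 20.2%. Members with an E2F-type match had a median difference of -1.13 at 24 h and those without it -0.94. Both groups spanned nearly the whole range, from -2.49 to 0.03 with the match and from -2.40 to 0.30 without it.

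Of the origin recognition complex, which marks origins, 3 of 6 genes fell and 3 were not called, and its median difference at 24 h was -0.23. Orc1 encodes the subunit whose level is known to swing with the cycle. Its level was -2.18, -2.38, -2.44 and -2.02 on the 4 normoxia arrays and -3.35, -3.51, -4.02 and -3.44 on the 4 hyperoxia arrays. All hyperoxia arrays were the lower, a difference of -1.33 ± 0.15 (SE), 2.51-fold lower with a limma adjusted p of 1.18e-05. Under normexp background correction the difference was -0.83. Orc6 fell by 0.41 and Orc2 by 0.34, smaller steps whose groups did not overlap.

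Orc3, a core subunit, stood at 2.63, 2.54, 2.72 and 2.76 in normoxia and 2.62, 2.56, 2.46 and 2.59 in hyperoxia. These groups overlapped, and the difference of -0.11 ± 0.09 (95% confidence interval -0.29 to 0.07, adjusted p = 0.386) was not called. Orc5 differed by 0.19 ± 0.12 (interval -0.06 to 0.44, adjusted p = 0.261), with overlapping groups. Orc4 ran the other way. It was -1.34, -1.26, -1.52 and -1.52 in normoxia and -1.13, -1.15, -0.98 and -1.16 in hyperoxia, so every hyperoxia array was above every normoxia array. The difference of 0.30 ± 0.12 (interval 0.05 to 0.55) had an adjusted p of 0.0672. With the replicate number as a block within each time the adjusted p of Orc4 was 0.0196, and it was then the only member called higher at 24 h.

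All 3 licensing genes fell. Cdc6, which helps load the helicase ring onto origins, was -0.27, -0.61, -0.65 and -0.22 in normoxia and -2.86, -2.99, -3.02 and -2.84 in hyperoxia. The groups were 2.19 apart, against ranges of 0.43 and 0.18 within them, and the difference of -2.49 ± 0.11 (5.61-fold lower, adjusted p = 1.71e-09) was the largest of the 53. A further Cdc6 probe gave -1.67. Gmnn encodes geminin, the inhibitor of CDT1. It went from 0.64, 0.38, 0.33 and 0.55 to -1.27, -1.44, -1.56 and -1.60, a difference of -1.94 ± 0.11 (3.84-fold lower, adjusted p = 1.39e-08), while its dimmer probe gave -0.42. Cdt1, the loading partner of CDC6, was 3.76, 3.50, 3.59 and 3.70 in normoxia and 2.76, 2.33, 2.71 and 2.52 in hyperoxia. Its groups did not overlap either, and it fell by 2.08-fold (-1.06 ± 0.11, adjusted p = 4.84e-06).

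The helicase ring genes Mcm2 to Mcm7 all fell, with a median of -1.49. Mcm5 had levels of 2.89, 2.91, 2.73 and 2.88 in normoxia and 1.09, 0.94, 0.81 and 0.65 in hyperoxia, with a difference of -1.99 ± 0.11 (3.96-fold lower, adjusted p = 6.36e-09). Mcm3 (-1.77), Mcm2 (-1.67), Mcm4 (-1.32) and Mcm6 (-1.28) followed. The smallest change of the ring was that of Mcm7, 3.93, 3.91, 3.81 and 3.94 against 3.14, 3.17, 3.15 and 3.04. It was still 1.71-fold lower (-0.78 ± 0.06, adjusted p = 1.87e-07), with ranges of 0.13 within either group.

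Mcm10, a factor needed to start the assembled helicase and no part of the ring, was 1.33, 1.16, 0.97 and 1.27 in normoxia and -0.96, -1.14, -1.43 and -1.33 in hyperoxia. It was 5.28-fold lower, a difference of -2.40 ± 0.12 (adjusted p = 2.97e-09), second only to Cdc6. Mcm8 encodes an MCM relative that acts in recombination repair. Its levels were 0.32, -2.40, -2.35 and -2.32 in normoxia and -2.99, -3.15, -3.28 and -3.24 in hyperoxia. Normoxia replicate 1 thus stood 2.63 above the next array, and the difference of -1.48 ± 0.44 (adjusted p = 0.0208) became -0.81 without it (adjusted p = 1.60e-05). The other Mcm8 probe, whose normoxia replicate 1 was at -2.37 beside -2.46, -2.61 and -2.40, gave a difference of -1.34.

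Of CDC45 and the 4 GINS subunits, which complete the moving helicase, 4 fell. Gins1 was 0.86, 0.64, 0.47 and 1.02 in normoxia and -0.80, -0.99, -1.05 and -0.82 in hyperoxia, 3.17-fold lower (-1.66 ± 0.13, adjusted p = 3.63e-07). Gins2 (-1.31), Cdc45 (-1.19) and Gins4 (-0.46) were lower with no overlap. Gins3 was the exception in this complex. Its arrays read 5.83, 5.76, 5.77 and 5.80 in normoxia and 5.80, 5.81, 5.88 and 5.81 in hyperoxia. The groups overlapped, and the interval of the difference of 0.03 ± 0.05 ran from -0.08 to 0.15 (adjusted p = 0.696).

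Both genes of the DBF4-dependent kinase, the trigger of origin firing, were called lower. Dbf4, the regulatory subunit, was 0.53, 0.25, 0.38 and 0.34 in normoxia and -0.43, -0.80, -0.42 and -0.59 in hyperoxia, 1.91-fold lower (-0.94 ± 0.09, adjusted p = 3.17e-06). Cdc7, the catalytic subunit, lay near the detection limit, well above background on 2 of 4 normoxia and 1 of 4 hyperoxia arrays. Its levels of -4.36, -5.06, -5.32 and -5.37 and -5.82, -5.31, -6.29 and -5.82 overlapped, and the difference of -0.79 ± 0.25 had an adjusted p of 0.0282. That call was lost when any of normoxia arrays 1 and 2 and hyperoxia arrays 1, 3 and 4 was left out (adjusted p = 0.0502 to 0.0935). Under normexp correction it was lost too, with a difference of -0.20 (adjusted p = 0.0976). It was the only called member at 24 h whose groups overlapped.

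The lowest member at 6 h was also Dbf4. At that time its levels were 0.45, 0.57, 0.50 and 0.66 in normoxia and 0.17, 0.38, 0.18 and 0.14 in hyperoxia. Every hyperoxia array was the lower, yet the difference of -0.33 ± 0.09 (unadjusted p = 0.00325) had an adjusted p of 0.258. Next by p-value were Orc5 (0.20, adjusted p = 0.801) and Mcm7 (-0.10, adjusted p = 0.816), whose groups overlapped.

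**Figure D2:**
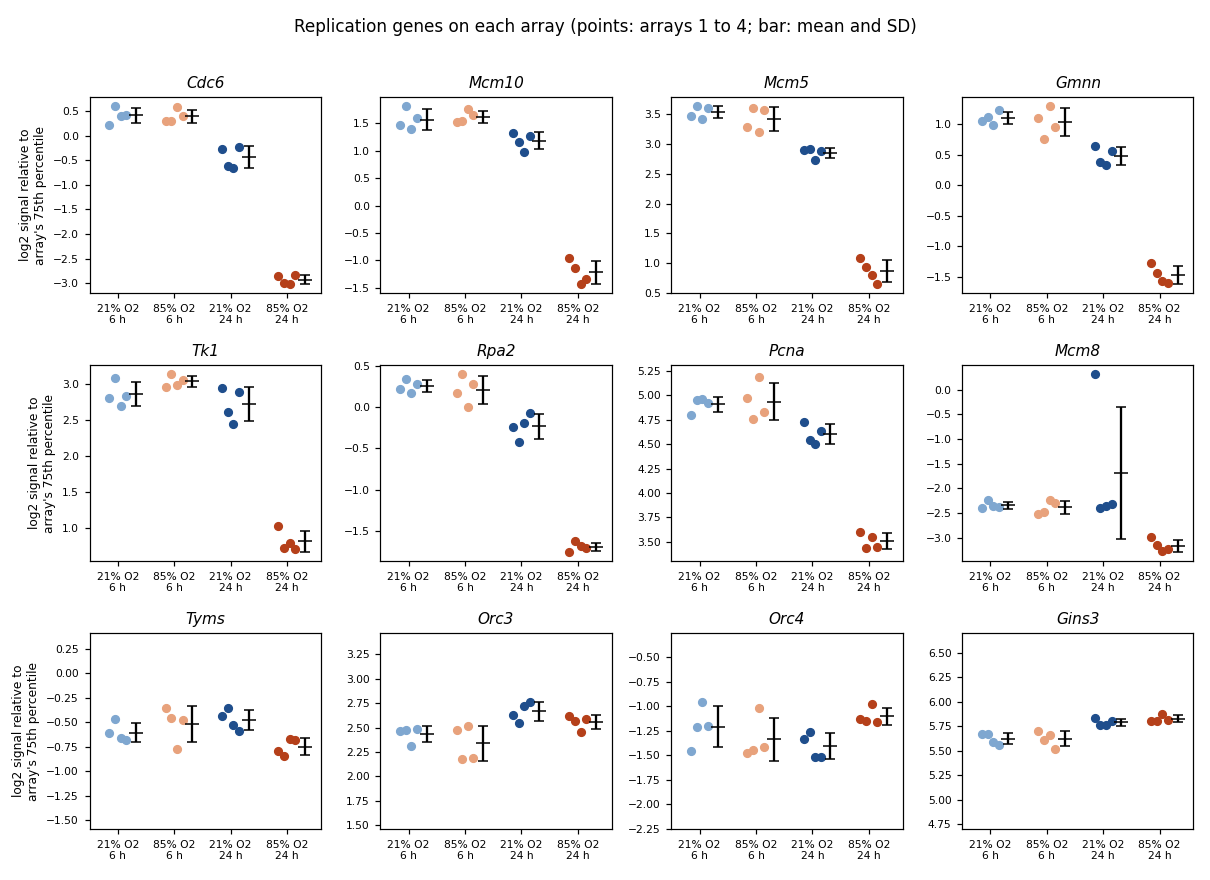
Log2 signal relative to the array's 75th percentile on each of the 16 arrays for 12 replication genes; points are arrays 1 to 4 of a group and the bar beside them gives the mean and SD. Each panel has its own range of at least 2 log2 units. Hyperoxia at 24 h stands apart in Cdc6 (-3.02 to -2.84), Mcm10, Mcm5, Gmnn, Tk1, Rpa2 and Pcna, and does not in Orc3 and Gins3.

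Among the polymerases the catalytic subunit had the largest difference of each complex, by a narrow margin over Pole2 in polymerase epsilon. Pola1, the catalytic subunit of polymerase alpha, was 0.94, 0.80, 1.13 and 1.07 in normoxia and -0.77, -0.74, -0.52 and -0.93 in hyperoxia, 3.30-fold lower (-1.72 ± 0.14, adjusted p = 4.66e-07). The primase genes Prim1 (-1.48) and Prim2 (-0.66) fell too, although a further Prim2 probe gave -0.12. Pola2, the accessory subunit, changed least, from -2.25, -2.38, -2.28 and -2.44 to -2.48, -2.78, -2.74 and -2.94. The groups were apart by 0.04, and its call (-0.40 ± 0.12, adjusted p = 0.0204) was lost when normoxia array 1, normoxia array 3 or hyperoxia array 4 was left out (adjusted p = 0.0503 to 0.0673).

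Polymerase epsilon copies the leading strand. Its catalytic gene Pole was 2.65, 2.47, 2.25 and 2.73 in normoxia and 1.48, 1.45, 1.29 and 1.23 in hyperoxia, 2.24-fold lower (-1.16 ± 0.12, adjusted p = 5.20e-06). Pole2 fell by 1.13 and Pole3 by 0.48. The histone-fold subunit Pole4 moved least, with 2.77, 2.64, 2.82 and 2.83 against 2.46, 2.47, 2.47 and 2.49. Its hyperoxia arrays differed among themselves by 0.03 at most and lay below all normoxia arrays (-0.30 ± 0.06, 1.23-fold lower, adjusted p = 0.00262).

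Of polymerase delta, the lagging strand enzyme, Pold1 was 2.87, 2.81, 2.64 and 2.93 in normoxia and 1.51, 1.48, 1.39 and 1.34 in hyperoxia. That was 2.60-fold lower (-1.38 ± 0.07, adjusted p = 6.41e-09). Pold2 fell by 1.17, and Pold3 by the least of the complex, from 1.46, 1.32, 1.18 and 1.43 to 0.54, 0.70, 0.49 and 0.48 (-0.80 ± 0.10, 1.74-fold lower, adjusted p = 3.29e-05). In all 3 the groups were apart.

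Pcna, the sliding clamp, was 4.73, 4.55, 4.51 and 4.64 in normoxia and 3.60, 3.44, 3.55 and 3.45 in hyperoxia. All hyperoxia arrays were lower by more than the range of either group, a 2.13-fold fall (-1.09 ± 0.09, adjusted p = 3.70e-07). The 5 genes of replication factor C, which loads the clamp, fell with a median of -0.74. Rfc5 led with 2.77, 2.71, 2.48 and 2.80 in normoxia and 1.52, 1.47, 1.36 and 1.25 in hyperoxia (-1.29 ± 0.08, 2.44-fold lower, adjusted p = 2.33e-08). Rfc4 (-0.90), Rfc2 (-0.74) and Rfc3 (-0.69) lay between it and Rfc1, the large subunit. Rfc1 stood at 2.79, 2.75, 2.59 and 2.71 and 2.38, 2.35, 2.35 and 2.34, a fall of 1.28-fold (-0.36 ± 0.08, adjusted p = 0.00446).

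All 3 genes of replication protein A fell. Rpa2, the middle subunit, was -0.24, -0.43, -0.20 and -0.07 in normoxia and -1.76, -1.63, -1.69 and -1.71 in hyperoxia, 2.75-fold lower (-1.46 ± 0.09, adjusted p = 2.24e-08). Rpa3 fell by 0.58. Rpa1, the large subunit, was 4.67, 4.48, 4.54 and 4.57 against 4.13, 4.12, 4.16 and 3.86, 1.41-fold lower (-0.50 ± 0.08, adjusted p = 3.79e-04), with hyperoxia replicate 4 below the other 3.

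Okazaki fragment genes fell in all 3 cases. Dna2, a nuclease and helicase that trims long flaps, was -2.41, -2.38, -2.74 and -2.62 in normoxia and -3.91, -3.63, -4.11 and -4.21 in hyperoxia (-1.43 ± 0.13, 2.69-fold lower, adjusted p = 1.69e-06). Under normexp correction its difference was -0.85. The flap nuclease gene Fen1 fell by 1.30. Lig1, the ligase that seals the fragments, changed from 3.44, 3.34, 3.31 and 3.42 to 2.67, 2.51, 2.65 and 2.63, the smallest step of the 3 (-0.76 ± 0.06, 1.69-fold lower, adjusted p = 2.31e-07).

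Of the 4 genes that supply deoxynucleotides, Tk1, the cytosolic thymidine kinase, was 2.94, 2.60, 2.45 and 2.88 in normoxia and 1.03, 0.72, 0.80 and 0.72 in hyperoxia. It was 3.73-fold lower (-1.90 ± 0.11, adjusted p = 2.03e-08). A second probe gave -1.80, and a further one, not well above background on any 24 h array, gave 0.24. The mean of the 3 probes differed by -1.15 and was called. Rrm2, the S phase subunit of ribonucleotide reductase, fell by 1.70 and Rrm1 by 0.83. Tyms, thymidylate synthase, moved least, from -0.44, -0.36, -0.53 and -0.59 to -0.79, -0.85, -0.67 and -0.68. Its groups were apart by 0.07, and the call (-0.27 ± 0.09, adjusted p = 0.0364) was lost when any of normoxia arrays 1, 2 and 3 and hyperoxia arrays 1 and 2 was left out (adjusted p = 0.0516 to 0.103). With all 34832 genes tested its adjusted p was 0.059.

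Both fork protection genes, which steady a stalled fork, fell. Timeless was 1.14, 1.10, 0.83 and 1.36 in normoxia and -0.36, -0.52, -0.45 and -0.57 in hyperoxia (-1.58 ± 0.10, 2.99-fold lower, adjusted p = 2.97e-08). Its partner Tipin was 3.50, 3.46, 3.37 and 3.46 against 2.42, 2.43, 2.31 and 2.14 (-1.12 ± 0.07, 2.18-fold lower, adjusted p = 5.30e-08). The groups were apart by 1.19 and 0.94.

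Probes other than the brightest existed for 15 members, 17 probes in all. At 24 h 16 of them had the sign of the brightest probe, and the exception was the Tk1 probe named above. Among those 16, a Dna2 probe (-0.81) and a Pole probe (-0.62) were likewise not well above background on any 24 h array. Their signs therefore say little.

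**Figure D3:**
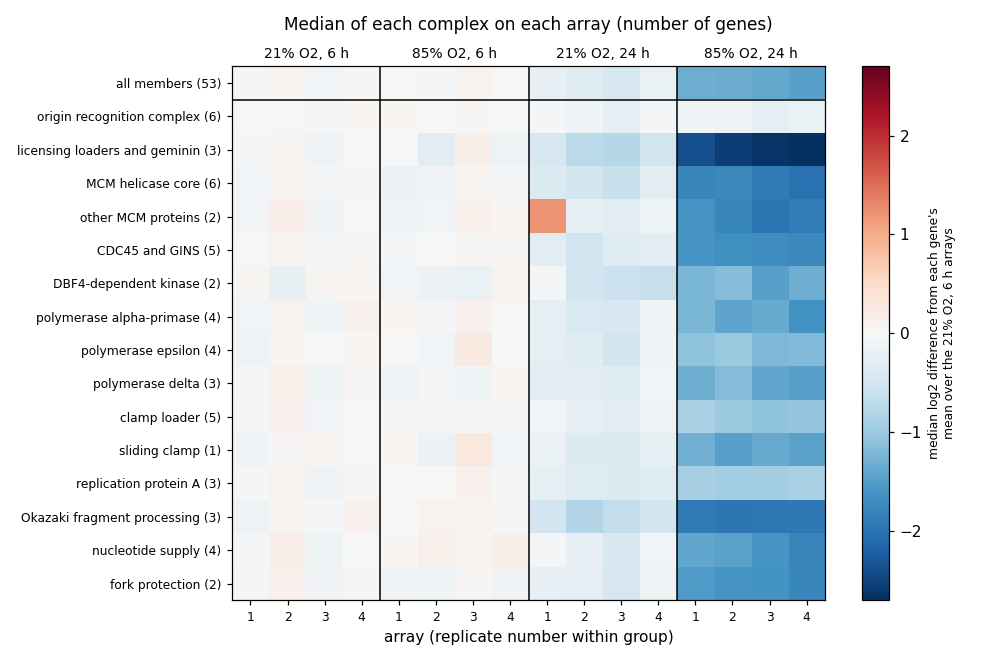
Median over the genes of each complex (rows, number of genes in brackets) on each of the 16 arrays (columns), as the log2 difference from each gene's own mean over the 4 normoxia arrays at 6 h. All 4 hyperoxia arrays at 24 h are blue in every row, palest in the origin recognition complex. The red cell (1.21) is the row of Mcm8 and Mcm10 on normoxia 24 h replicate 1. On that array Mcm8 was 0.32, against a mean of -2.35 in normoxia at 6 h, and Mcm10 was 1.33 against 1.57.

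Taken as 1 median per array over the 53 genes, each set against its own normoxia mean at 6 h, the arrays read -0.05, 0.08, -0.07 and 0.03 in normoxia at 6 h and -0.02, -0.03, 0.09 and 0.02 in hyperoxia at 6 h. At 24 h they read -0.22, -0.32, -0.43 and -0.17 in normoxia and -1.32, -1.34, -1.38 and -1.46 in hyperoxia. The 6 h groups overlapped, normoxia at 24 h lay below both, and hyperoxia at 24 h lay well below all other arrays.

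The hyperoxia effect itself differed between the times. The difference between the effects, 24 h less 6 h, was called lower in 44 of 53 members and higher in none (1, Orc4, at an unadjusted p under 0.05), against 5.64% and 6.64% of all genes. Its median over the members was -1.11. Cdc6 (-2.47 ± 0.16, adjusted p = 5.52e-07), Mcm10 (-2.45 ± 0.17, adjusted p = 7.77e-07) and Tk1 (-2.08 ± 0.16, adjusted p = 1.76e-06) led. The 9 members not called were Orc3, Orc4, Orc5, Mcm8, Gins3, Cdc7, Pola2, Rfc1 and Tyms. Mcm8 was called lower without normoxia 24 h replicate 1 (-0.77, adjusted p = 0.00103). Orc4 was called higher (0.44, adjusted p = 0.0339) with the replicate number as a block within each time.

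Over time more replication genes fell than rose at both oxygen levels, and time and slide cannot be told apart. In normoxia 30 of 53 were lower at 24 h than at 6 h and 2 were higher, where 23.5% of all genes were lower and 20.6% higher. The median was -0.28, and 21 members were not called. Scaling each array to its median gave 13 lower and 4 higher. That scaling moved the median of all genes from -0.02 to 0.19, and relative to it the members' median was -0.26 under both scalings. Dna2 (-0.96 ± 0.13), Cdc6 (-0.85 ± 0.11) and Cdc7 (-0.71 ± 0.25) fell most, and Orc3 (0.24 ± 0.09) and Gins3 (0.17 ± 0.05) were the members that rose. Cdc7 did not keep its sign: under normexp background correction its difference was 0.04. Its call was also lost when any of normoxia 24 h arrays 2, 3 and 4 and normoxia 6 h arrays 1, 3 and 4 was left out. The call of Orc3 held in 1 of 8 such fits, that without normoxia 24 h array 2. That of Gins3 was lost without normoxia 24 h array 1 and without normoxia 6 h arrays 3 or 4.

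In hyperoxia 48 of 53 were lower and 2 higher, the same Orc3 (0.22) and Gins3 (0.20), against 27.3% and 25.0% of all genes, with a median of -1.36. Cdc6 fell by 3.32 ± 0.11, Mcm10 by 2.83 ± 0.12 and Dna2 by 2.58 ± 0.13. Only Orc4, Orc5 and Mcm8 were not called. The rise of Orc3 was no longer called when any of hyperoxia 24 h arrays 1, 2 and 4 and hyperoxia 6 h arrays 2 and 4 was left out. Of the genes that hyperoxia lowered at 24 h, Cdt1, Rpa1, Tyms and Mcm8 had a difference above 0 over time in normoxia (0.08, 0.01, 0.13 and 0.66, none called). That of Mcm8 rested on normoxia 24 h replicate 1, without which it was -0.01, and the other Mcm8 probe also gave -0.01. With that array left out the fall of Mcm8 over time in hyperoxia was called (-0.78 ± 0.08, adjusted p = 5.46e-06).

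The counts over time depended on the scaling of the arrays. With arrays aligned on their medians, the median of all genes moved from -0.02 to 0.19 in normoxia and from -0.02 to 0.20 in hyperoxia. The calls over all genes in normoxia turned from 5244 higher and 5981 lower to 10106 and 3410, and those in hyperoxia from 6354 and 6951 to 10687 and 4204. The members called in normoxia then were 13 lower and 4 higher, and in hyperoxia 46 and 3. Relative to the median of all genes, the members' median was -0.26 in normoxia and -1.34 in hyperoxia under either scaling. The rises of Orc3 and Gins3 passed the test under neither quantile normalization nor the values the authors deposited.

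**Figure D4:**
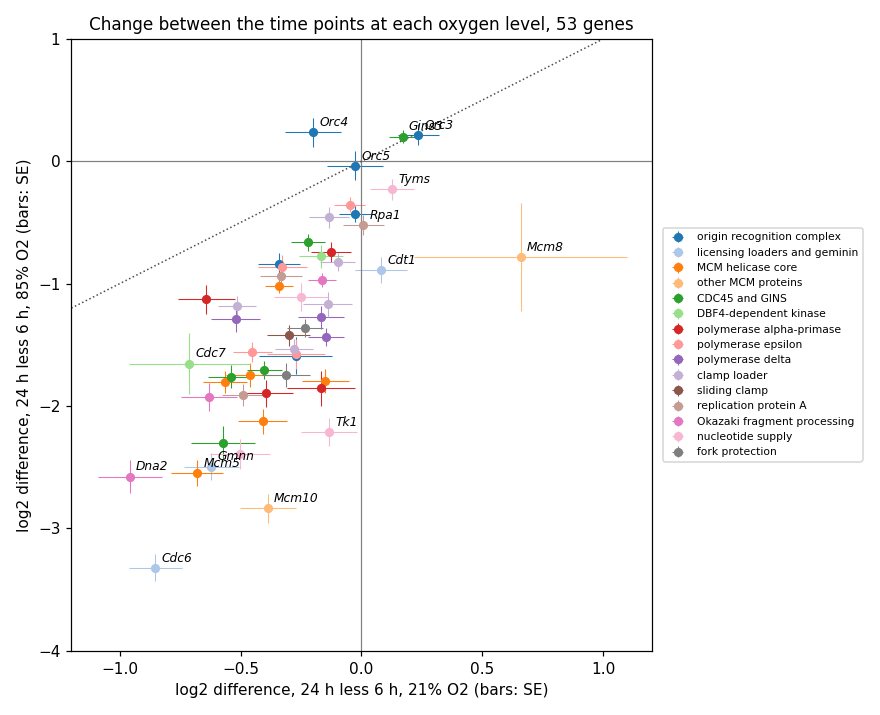
Log2 difference between 24 h and 6 h for each of the 53 genes in normoxia (horizontal axis) and hyperoxia (vertical axis), coloured by complex; bars are SE with 4 arrays per group, and the dotted line marks equal change. Most points lie far below the line, down to Cdc6 at -0.85 and -3.32, while Orc3 and Gins3 lie near it.

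Markers of cell types moved with time as well. Between 6 h and 24 h, 7 of the 11 tested type II markers fell and 1 rose in normoxia, and 8 fell in hyperoxia. Of 12 fibroblast and smooth muscle markers 8 rose in normoxia and 9 in hyperoxia, and none fell. Of all genes tested 23.5% fell and 20.6% rose over time in normoxia, and 27.3% and 25.0% in hyperoxia. Time and slide cannot be told apart here either. The summed level of the type II list, as log2 of the summed signals relative to the array's percentile, was 6.65 to 7.03 in normoxia and 6.80 to 7.32 in hyperoxia at 6 h, and that of the fibroblast list 10.29 to 10.45 and 10.26 to 10.49. At 24 h the type II sums were 5.94 to 6.16 in normoxia and 5.86 to 6.24 in hyperoxia, which overlapped. The fibroblast sums were 10.95 to 11.16 and 10.88 to 10.97, which overlapped too. Between the oxygen levels at 24 h, where 12.8% of all genes were lower and 15.5% higher, 3 of the 11 type II markers fell (Lamp3, Sftpb and Etv5) and 2 rose (Ctsh and Abca3). Of the 12 fibroblast markers 1 fell (Thy1) and 1 rose (Tcf21).

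The summed level of macrophage and neutrophil markers was 6.74 to 6.97 in normoxia and 6.99 to 7.03 in hyperoxia at 24 h, with no overlap. Of the 12, 2 were higher, Cd68 (1.02) and S100a8 (1.75), a share close to the 15.5% of all genes. Endothelial sums were 4.27 to 4.53 and 4.41 to 4.57, lymphocyte sums 3.96 to 4.07 and 3.91 to 4.13, and airway sums 5.81 to 5.98 and 5.59 to 5.87. The groups overlapped in each of these lists. Of these lists Egfl7 fell (-0.31), Scgb1a1 rose (0.78), and no lymphocyte marker was called. The part of other cells in the fall of the replication genes was not tested.

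Genes that work beside the 53 were read from 3 lists. Of 26 fork and origin accessory factors 21 were lower at 24 h and 1 higher, with a median of -0.91. The shares of all genes at 24 h were 12.8% lower and 15.5% higher, here and for both lists that follow. Exo1, a nuclease of mismatch repair and fork processing, was 1.46, 1.13, 1.07 and 1.46 in normoxia and -1.24, -1.39, -1.53 and -1.62 in hyperoxia (-2.72 ± 0.12, adjusted p = 1.71e-09). The groups were 2.31 apart. Clspn, the adaptor of the replication checkpoint, differed by -2.59 ± 0.15 and Dscc1, of the alternative clamp loader, by -2.32 ± 0.11. Pold4, the small subunit of polymerase delta, was the gene called higher. It was 1.95, 2.12, 2.11 and 1.92 in normoxia and 2.44, 2.52, 2.42 and 2.16 in hyperoxia (0.36 ± 0.11, adjusted p = 0.029), with no overlap. Its call was lost when any of normoxia arrays 1 and 4 and hyperoxia arrays 1, 2 and 3 was left out (adjusted p = 0.0655 to 0.0835).

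Of 14 genes of replication-coupled chromatin assembly 12 fell, with a median of -1.03. Uhrf1, which guides maintenance methylation, was 2.76, 2.41, 2.66 and 2.68 in normoxia and 0.50, 0.43, 0.39 and 0.19 in hyperoxia (-2.25 ± 0.08, adjusted p = 5.28e-10). The histone chaperone genes Asf1b (-1.80 ± 0.09) and Chaf1b (-1.70 ± 0.10) fell as well, and Slbp and Rbbp4 were not called.

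Of 20 other genes of nucleotide synthesis 13 fell, with a median of -0.38. Cad, the enzyme that opens pyrimidine synthesis, was 0.55, -2.74, 0.60 and -2.39 in normoxia and -3.06, -3.01, -3.33 and -3.13 in hyperoxia. Its normoxia arrays fell into a high and a low pair, and the difference of -2.14 ± 0.62 (adjusted p = 0.0175) was not called without normoxia replicate 1 (-1.62, adjusted p = 0.0569) or replicate 3 (-1.61, adjusted p = 0.0556). Umps (-0.94 ± 0.08) fell in every fit that left out an array. At 6 h no gene of the 3 lists was called, and 0, 1 and 3 of them had an unadjusted p under 0.05. Of the 25419 genes tested 1877 had such a p at 6 h. The difference between the effects was called lower in 19 of 26, 9 of 14 and 8 of 20 of the lists, in that order, against 5.64% of all genes.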

How the data were processed

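Total RNA of the 16 samples was labelled with Cy3, per the labels' protocols. Scanner files that the authors deposited, 1 for each sample, were made with Agilent Feature Extraction (10.7.3.1), per the submitters' processing notes. They hold an intensity for each spot, already corrected for background per the file headers and not scaled between samples. A deposited table of log2 values (43964 probes, median 7.19 in each column), whose normalization is not given in the sources used here, served as an alternative.

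Non-control spots of a probe were averaged (55681 probes), outlier spots left out, and log2 intensities shifted so that each array's 75th percentile was 0. Each gene was read from its brightest probe and tested where at least 3 of 4 arrays in some group had it well above background. The comparisons used limma 3.58.1 under R 4.3.3 (1 mean per group, 12 residual degrees of freedom, two-sided tests, Benjamini-Hochberg adjustment over 25419 genes), tested on simulated data. The number of arrays limits the precision.

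At 24 h, arrays sharing a replicate number across the oxygen levels had residual correlations of 0.246, 0.344, 0.244 and 0.261. At 6 h these were 0.251, 0.254, 0.354 and 0.0863. The main fit did not pair such arrays, and the replicate number as a block was an alternative. What they share was not tested. Other scalings, background correction, filter, probe rule, array weights, blocks and each array left out were tried.

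The members and lists were chosen with earlier results of these data known. Named array by array are the largest and smallest difference at 24 h in each complex. Gmnn and Orc4 are given array by array as well, outside that rule. All members not called at 24 h, the 3 lowest p at 6 h, the 3 largest changes each way over time and in the difference, and 3 genes per list are named too. Pold4 and the markers named were chosen after their values were seen. The value of 1 listed gene of nucleotide synthesis is not reported here.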

Additional observations from a re-analysis of the deposited data

Results flagged for a closer look

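In 6 of the 124 sets of 4 arrays examined (31 members in 4 groups each), 1 array stood so far from the others that its gap to the nearest exceeded Dixon's 95% critical share of the whole range, and chance gives about 1 in 20 such sets. The widest gap was that of Mcm8 on normoxia 24 h replicate 1, at 0.32 where the others lay between -2.40 and -2.32. The further cases were small in size. Orc3 was 2.31 on normoxia 6 h replicate 3 (others 2.46 to 2.48), Mcm5 was 2.73 on normoxia 24 h replicate 3 (others 2.89 to 2.91), and Gins3 was 5.88 on hyperoxia 24 h replicate 3 (others 5.80 to 5.81). Pole was 3.23 on hyperoxia 6 h replicate 3 (others 2.80 to 2.86), and Rpa1 was 3.86 on hyperoxia 24 h replicate 4 (others 4.12 to 4.16).

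The hyperoxia effect differed between 24 h and 6 h by the test of the difference in 44 members. It was largest in Cdc6 (-2.47), Mcm10 (-2.45) and Tk1 (-2.08), each with hyperoxia below normoxia on 4 of 4 arrays at 24 h. The times lay on different slides, so time and slide cannot be told apart in this difference.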

How the results depend on the processing

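The count of members lower at 24 h was 47 to 49 under each alternative run on all 24 h arrays, 46 without normoxia 24 h replicate 1, and 46 to 49 over all fits with an array left out, and no member was called at 6 h in any of these fits. The count higher at 24 h was 1 with the arrays of that time alone, with the replicate block within each time and with array weights, each time Orc4. The difference between the effects had 1 member higher with the replicate block within each time and with array weights, and 0 to 1 with an array left out. For 24 h against 6 h in normoxia, median scaling gave 13 lower and 4 higher. The count higher there was 0 under quantile normalization and in the authors' table, 1 with no filter, 1 with the replicate block over both times and 0 to 2 with an array left out. In hyperoxia the count higher over time was 0 under quantile normalization and in the authors' table, 1 under normexp, 1 with no filter, 1 with the replicate block over both times and 1 to 3 with an array left out. Ranges with an array left out were 23 to 30 lower over time in normoxia, 47 to 48 in hyperoxia and 42 to 46 for the difference. Cdc7 over time in normoxia turned to 0.0377 under normexp. Of the further values of named genes under alternatives 754 kept the sign and outcome of the main fit, whether called or not called. Another 56 lost their call with the same sign. The causes were not tested. The replicate blocks ended no call of a member at 24 h. Normexp gave a smaller median at 24 h, -0.89, and Mcm8 lost its call with the arrays of that time alone (adjusted p = 0.1). Signals near background limit Cdc7.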
